A study of Mus musculus with 3 samples.

Results

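The Klrb1 receptor genes and the Clec2 genes lie interleaved in the natural killer gene complex of mouse chromosome 6, and their occupancy by the transcription factor Runx3 was described here in resting splenic natural killer (NK) cells. The members were 4 receptor genes (Klrb1a, Klrb1b, Klrb1c and Klrb1f) and 6 genes of the Clec2 family (Clec2d, Clec2e, Clec2f, Clec2g, Clec2h and Clec2i), 10 in all, taken by gene symbol from the mm9 annotation. Of these, 9 are among its 22350 protein-coding genes, and Clec2f is annotated there as a pseudogene under its older symbol Clec2f-ps. Each gene was taken with 20 kb on either side, and the stretch that joins all these windows ran over 617 kb, chr6:128539245-129156552. It held 37 of the 15524 Runx3-bound regions and 43 of the 49902 regions marked by H3K4me1, the monomethylated histone that marks enhancers and the flanks of promoters.

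The samples were 3 chromatin immunoprecipitations (ChIP) from freshly isolated, unstimulated splenic NK cells of wild-type ICR mice, an outbred strain: 1 with an in-house polyclonal anti-Runx3 antibody, 1 with a monoclonal anti-H3K4me1 antibody and 1 with non-immune rabbit serum (NIS) as control. No genotype, treatment or age distinguished them. The cells were enriched by negative selection and then sorted, for NKp46 by the sample descriptions and for DX5 by the study's methods. The region lists hold positions only, with no height, score or read count, and the NIS control entered only as the background of the calling. The sample descriptions name 1 first immunoprecipitation per antibody, whereas the study's methods describe calling on reads joined from biological repeats. The Runx3 list holds exactly as many regions as the study reports for resting NK cells, so it represents the calling on joined repeats. For H3K4me1 the text of the study gives no number of regions, and that list was taken as joined from the methods alone. There is 1 list per antibody, with no replicate spread, no known depth at any region and no test between groups. Intervals on shares below are 95% Wilson intervals and cover counting error over regions only. They treat regions as independent, although 14 of the 37 in the stretch lie in pairs of similar sequence. All 8 NK cell marker genes examined (such as Ncr1, Eomes and Prf1) held 2 to 5 Runx3-bound regions within 5 kb, against 2 of 6 T cell, 3 of 6 B cell and 2 of 6 myeloid marker genes with any and 39.8% of protein-coding genes. Within 20 kb, Runx3-bound regions were present at all 8 NK cell and at 4 of 6 marker genes of each other list. H3K4me1 separated the lists less: a region lay within 5 kb of 8 of 8 NK cell, 5 of 6 T cell, 5 of 6 B cell and 4 of 6 myeloid marker genes. The part of other cells in the results was not tested.

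The Klrb1 genes encode the NKR-P1 family of C-type lectin-like receptors of NK cells. Klrb1a, Klrb1c and Klrb1f encode receptors of the activating type, of which Klrb1c carries the NK1.1 antigen in C57BL/6 mice, and they signal through the adaptor chain FcRγ, the product of Fcer1g. Klrb1b encodes an inhibitory receptor with a cytoplasmic inhibitory motif that recruits the phosphatase SHP-1, the product of Ptpn6. The Clec2 genes encode the C-type lectin-related (Clr) proteins, several of which are the ligands of these receptors: Clec2d encodes Clr-b, the broadly expressed ligand of the Klrb1b receptor, and Clec2i encodes Clr-g, a ligand of the Klrb1f receptor. Runx3 binds DNA through its Runt domain at the RUNX consensus, searched here on both strands as 4 words: TGTGGT is the first word, TGTGGC the second word, TGCGGT the third word and TGCGGC the fourth word.

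The sequences that carry the main positional results are given first, as 8 windows of 240 bases of the mm9 reference, which is the C57BL/6 sequence and not that of the ICR mice sampled. Each lies inside a Runx3-bound region, leaves out annotated untranslated exons and has its RUNX words in capitals. The windows were placed around a RUNX word of the region, so its presence in each was given by that choice. They do not show the middle of the region: the central 200 bp of the Klrb1c, Clec2i, Clec2g and Clec2d regions held no RUNX word. The first 4 are shown because they form pairs of similar sequence, the region at the start of Klrb1a with that at the start of Klrb1c, and the region in the first kilobases of Clec2i with its counterpart in Clec2g. Members are printed on the strand of their gene.

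Klrb1a, chr6:128572956-128573195, minus strand: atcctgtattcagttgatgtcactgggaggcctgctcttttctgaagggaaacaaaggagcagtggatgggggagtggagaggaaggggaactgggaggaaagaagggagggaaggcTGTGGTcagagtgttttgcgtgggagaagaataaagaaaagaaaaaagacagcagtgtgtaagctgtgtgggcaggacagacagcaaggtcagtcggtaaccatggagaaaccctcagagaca
Klrb1c, chr6:128738660-128738899, minus strand: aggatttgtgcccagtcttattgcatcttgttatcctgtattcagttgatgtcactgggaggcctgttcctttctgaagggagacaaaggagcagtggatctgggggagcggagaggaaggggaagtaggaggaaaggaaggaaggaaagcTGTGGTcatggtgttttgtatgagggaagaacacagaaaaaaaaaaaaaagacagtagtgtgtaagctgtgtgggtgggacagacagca
Clec2i, chr6:128839103-128839342, plus strand: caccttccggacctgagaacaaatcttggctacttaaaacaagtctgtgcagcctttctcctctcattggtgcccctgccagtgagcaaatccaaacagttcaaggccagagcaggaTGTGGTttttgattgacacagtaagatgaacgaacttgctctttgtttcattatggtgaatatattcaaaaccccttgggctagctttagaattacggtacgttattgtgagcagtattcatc
Clec2g, chr6:128922899-128923138, plus strand: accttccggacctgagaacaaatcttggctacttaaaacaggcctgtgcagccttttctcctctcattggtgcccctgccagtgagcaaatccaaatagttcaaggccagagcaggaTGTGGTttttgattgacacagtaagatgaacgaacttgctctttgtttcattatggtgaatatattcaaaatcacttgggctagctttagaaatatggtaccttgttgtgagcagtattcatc

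The Klrb1a and Klrb1c windows each held 1 word, TGTGGT on the strand of the gene, 124 bp and 87 bp upstream of the nearest annotated start. In Clec2i and Clec2g the word was again TGTGGT on the gene's strand, 1607 bp and 1841 bp downstream of the nearest start and inside an intron of either gene. The remaining windows show the Runx3-bound regions nearest to the starts of Klrb1b, Klrb1f and Clec2d, and the widest region of the stretch, upstream of the long non-coding RNA gene Gm17395.

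Klrb1b, chr6:128777850-128778089, minus strand: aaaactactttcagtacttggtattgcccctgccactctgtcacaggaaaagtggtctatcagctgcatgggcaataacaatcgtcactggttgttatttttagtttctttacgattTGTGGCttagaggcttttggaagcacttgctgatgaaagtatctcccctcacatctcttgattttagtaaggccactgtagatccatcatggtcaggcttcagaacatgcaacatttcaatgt
Klrb1f, chr6:128995547-128995786, plus strand: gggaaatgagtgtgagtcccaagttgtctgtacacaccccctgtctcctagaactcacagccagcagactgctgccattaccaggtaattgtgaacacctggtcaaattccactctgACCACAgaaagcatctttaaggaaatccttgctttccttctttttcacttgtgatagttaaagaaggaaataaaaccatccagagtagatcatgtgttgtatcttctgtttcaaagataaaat
Clec2d, chr6:129130393-129130632, plus strand: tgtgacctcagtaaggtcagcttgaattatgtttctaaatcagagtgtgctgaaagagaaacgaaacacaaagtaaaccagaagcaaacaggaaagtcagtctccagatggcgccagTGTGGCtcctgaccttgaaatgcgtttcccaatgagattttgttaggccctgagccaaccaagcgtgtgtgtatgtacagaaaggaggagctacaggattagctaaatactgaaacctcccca
Widest region, chr6:128793303-128793542, plus strand: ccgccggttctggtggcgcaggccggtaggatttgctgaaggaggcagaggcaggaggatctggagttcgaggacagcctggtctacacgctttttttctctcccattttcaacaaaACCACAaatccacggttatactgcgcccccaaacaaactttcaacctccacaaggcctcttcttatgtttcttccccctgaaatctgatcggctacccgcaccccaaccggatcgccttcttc

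The Klrb1b window held TGTGGC, 1621 bp upstream of the nearest start. The Klrb1f word shown was read on the opposite strand of the gene, 252 bp upstream. The Clec2d word, TGTGGC, lay 120 bp upstream of the single annotated start. Each window shows 1 word, but some whole regions held more: 3 at Klrb1b, 3 at Klrb1f, 2 at Clec2i and 5 in the widest region.

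Runx3-bound regions were denser around the receptor genes than around the Clec2 genes. The windows of the 4 receptors together covered 193 kb and held 30 regions, or 15.5 per 100 kb, whereas the windows of the 6 Clec2 genes covered 323 kb and held 5, or 1.55 per 100 kb, with 1 region counted in both. Over the 20 chromosomes the density was 0.588 per 100 kb, below both, but that figure includes sequence far from genes. Counted per gene, the median was 9.5 regions for the receptors and 1.0 for the Clec2 genes. The median over all protein-coding genes was also 1.0, so only the median of the Clec2 genes equalled the background. Single Clec2 genes ranged from 0 regions at Clec2e and Clec2h to 3 at Clec2g. The remaining 3 regions of the stretch lay in no member window. H3K4me1 covered 59.1% of the receptor windows and 16.3% of the Clec2 windows, against 4.83% of the 20 chromosomes, likewise not limited to gene windows. The share of 40-base words that occur once in the genome, which limits where the uniquely aligned 40-base reads could land, was 84.0% in the receptor windows and 75.6% in the Clec2 windows, against 86.4% genome-wide; its part in the contrast was not tested. Within gene bodies the contrast was 16.4 against 3.16 regions per 100 kb.

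**Figure D1:**
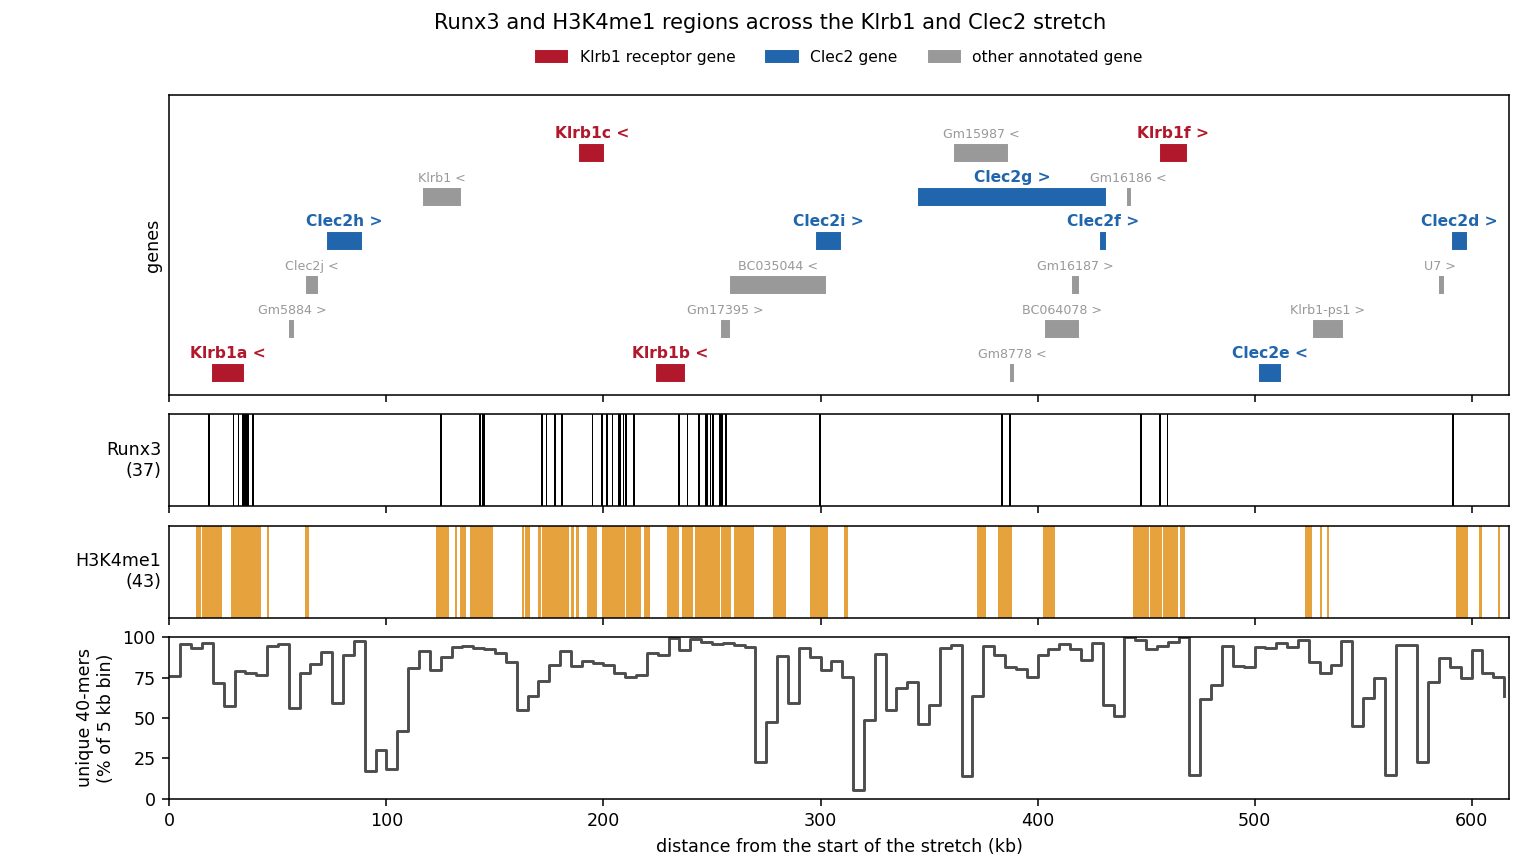
Map of the 617 kb stretch, with distance from its start in kb on the x axis: annotated genes with > or < for their strand, the 37 Runx3-bound regions as black bars, the 43 H3K4me1 regions as orange bars, and the share of unique 40-base words in bins of 5 kb (%). The black bars crowd at Klrb1a and from Klrb1c to Gm17395, and the bins that hold few unique words lie mostly outside them.

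All 4 receptor genes had Runx3-bound regions, and Klrb1b and Klrb1c had 12 each within 20 kb. Their windows overlap and share 4 of these regions, so the pair had 20 distinct ones. Of the protein-coding genes, 0.121% had 12 or more. Klrb1a had 7, more than 98.6% of protein-coding genes, and Klrb1f had 3, more than 85.9%. In the Clec2 family, Clec2g also had 3, more than 85.9%, while Clec2d, Clec2f and Clec2i had 1 each and Clec2e and Clec2h had none. The ranks depend on the flank. Within 5 kb, Klrb1b, Klrb1f and Clec2g had 2 regions each, Klrb1c 4 and Klrb1a 7, where 39.8% of protein-coding genes had any. In all, 8 of 10 members had a region within 20 kb, against 51.0% of protein-coding genes. Over the 10 members the median was 2.0 regions, and over all protein-coding genes it was 1.0. Since a protein-coding gene had a region in this window about as often as not, the single regions of Clec2d, Clec2f and Clec2i are at the background.

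**Figure D2:**
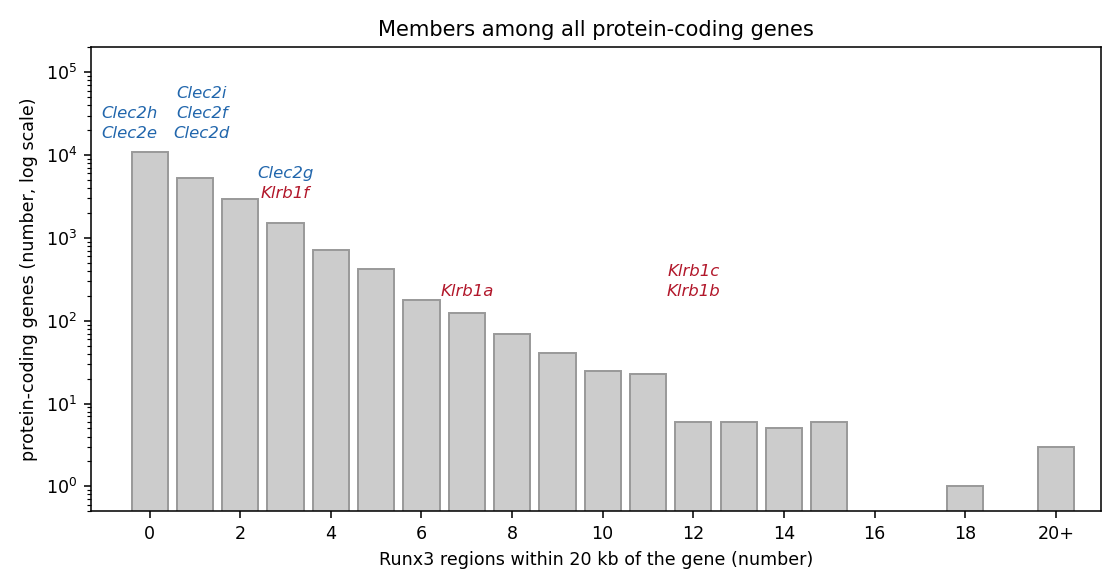
Number of protein-coding genes (y axis, log scale) by the number of Runx3-bound regions within 20 kb (x axis, 20 or more pooled), with each member named above its class, receptors in red and Clec2 genes in blue. Klrb1b and Klrb1c stand at 12 and Klrb1a at 7, and 5 of the 6 Clec2 genes stand at 0 or 1.

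**Figure D3:**
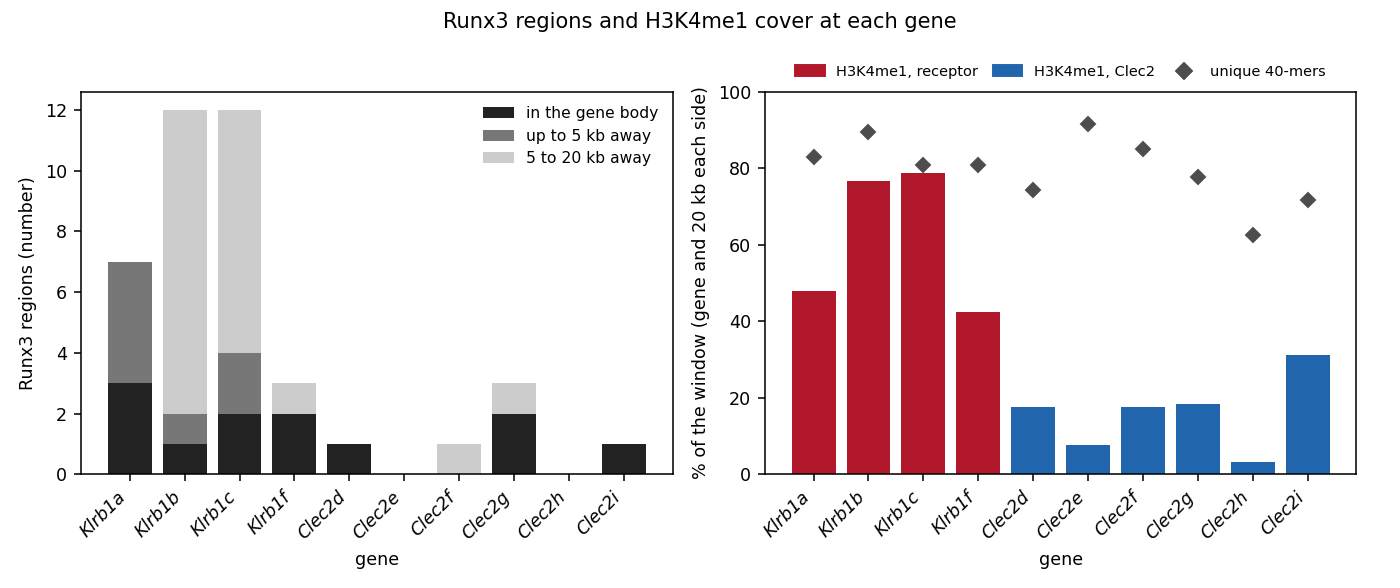
Left, Runx3-bound regions per gene (number), split by whether they touch the gene body, lie up to 5 kb away or lie 5 to 20 kb away. Right, share of the window covered by H3K4me1 (bars, %) and share of unique 40-base words (diamonds, %); the bars of the 4 receptors stand between 42.4% and 78.7% and those of the 6 Clec2 genes between 3.19% and 31.3%.

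Klrb1a, at chr6:128559245-128572952 on the minus strand, had the most regions within 5 kb of the gene body among the members. All 7 of its regions lay within 5 kb of the gene body. The region over its start, chr6:128572565-128573394, was centred 28 bp upstream of an annotated start. Introns of the gene held 2 regions, centred 1914 bp and 4149 bp downstream of the start, and 3 more followed upstream, centred 1349 bp, 2536 bp and 4930 bp away. The region 1349 bp upstream was the second widest of the stretch, at 1351 bp. A further region was centred 15469 bp downstream of the start, beyond the 3' end of the gene. A single H3K4me1 region of 13752 bp, the widest of the stretch, held 6 of the 7.

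Klrb1c, at chr6:128728503-128739233 on the minus strand, had a region over its start, chr6:128738223-128739071, centred 12 bp from an annotated start in an untranslated exon. A region over a coding exon was centred 4347 bp downstream. Upstream, 6 regions were centred between 1645 bp and 14017 bp from the start. Beyond the 3' end, 4 regions were centred between 18571 bp and 27487 bp downstream of the start, all of them intergenic. H3K4me1 covered 78.7% of the window of Klrb1c and 51.2% of its gene body.

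Klrb1b, the inhibitory receptor gene at chr6:128763724-128776349 on the minus strand, was the only receptor of the 4 with no region centred within 1 kb of a start. The nearest, chr6:128777585-128778377, was centred 1632 bp upstream, and an intronic region was centred 2144 bp downstream. Of its 12 regions, 6 lay farther upstream, in chr6:128782878-128795939, the last of them in an exon of Gm17395, and 4 lay beyond the 3' end and are those shared with Klrb1c. The widest region, of 1508 bp, was centred 437 bp upstream of the annotated start of Gm17395, and that gene's start is the only start of a non-member gene in the stretch with a region centred within 1 kb. H3K4me1 covered 76.8% of the window of Klrb1b.

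Klrb1f, at chr6:128995919-129007489 on the plus strand, lies apart from the other receptor genes and had 3 regions. The region at its start, chr6:128995037-128996199, was centred 301 bp upstream, and an intronic region was centred 3219 bp downstream. A region of 1161 bp, chr6:128986358-128987518, lay farther upstream and also fell in the windows of Clec2g and Clec2f, where it was the only region for Clec2f. H3K4me1 covered 81.4% of the gene body of Klrb1f, the highest share of the 10 members.

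Clec2d, the gene of the Klrb1b ligand at chr6:129130633-129136552 on the plus strand, had a region over its start, chr6:129130370-129131018, centred 61 bp downstream of it. This was the single region of the 37 that did not overlap H3K4me1: the nearest H3K4me1 region, of 5514 bp, began 1186 bp farther into the gene. Clec2i, at chr6:128837606-128848185 on the plus strand, had 1 region, chr6:128838483-128839549, centred 1400 bp downstream of its start in an intron. The gene BC035044, annotated on the minus strand, overlaps Clec2i there, and the region lay 2128 bp downstream of its start. Clec2g is annotated over 86139 bp and on 4 starts, and its nearest region, chr6:128922542-128923157, was centred 1672 bp downstream of an internal start. A second intronic region of Clec2g followed at chr6:128926112-128926810. The longest extent of Clec2g rests on a transcript that spans Clec2f, and without that transcript Clec2g had 2 regions.

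Clec2e and Clec2h had no Runx3-bound region within 20 kb, and their nearest regions were centred 51.8 kb and 34.5 kb from their starts. H3K4me1 covered 7.74% and 3.19% of their windows and neither gene body. Both genes lie in the longest parts of the stretch without a Runx3-bound region, of 131 kb around Clec2e and 85.7 kb around Clec2h. Unique 40-base words made up 91.5% of the Clec2e window, the highest share of the 10, and 62.5% of the Clec2h window, the lowest. The Clec2e gap also holds Klrb1-ps1, and the Clec2h gap holds Gm5884 and Clec2j.

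At transcription starts, 4 of 10 members had a region centred within 1 kb: Klrb1a, Klrb1c, Klrb1f and Clec2d. Among all protein-coding genes 27.2% did. An H3K4me1 region lay within 20 kb of all 10 members, against 74.0% of protein-coding genes.

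**Figure D4:**
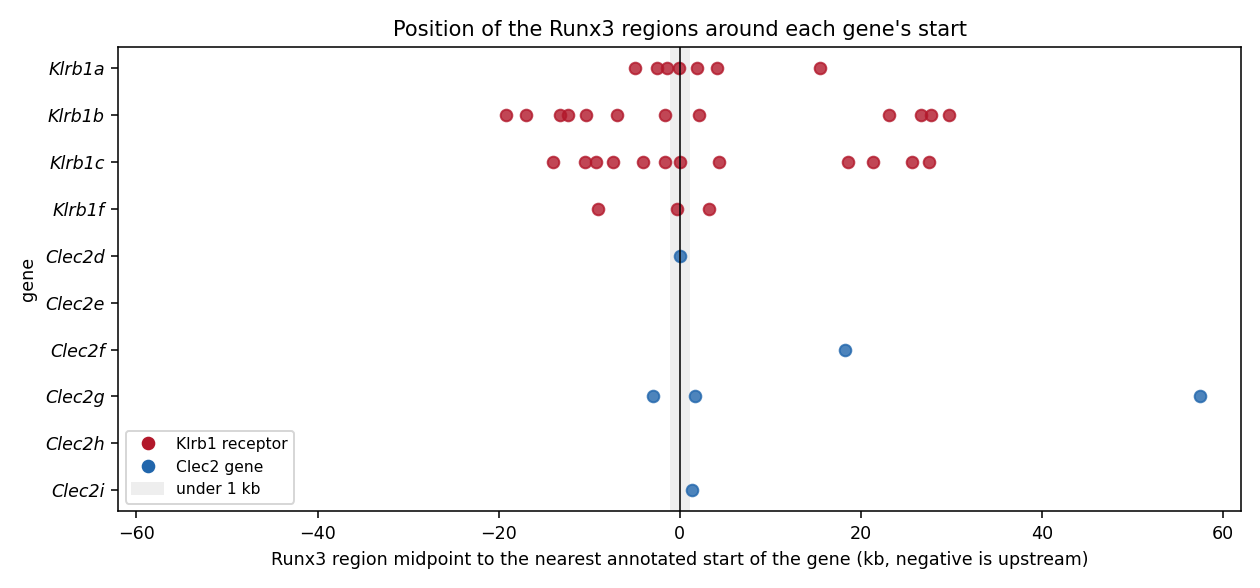
Midpoints of the Runx3-bound regions in each member's window by their distance in kb from the nearest annotated start of that gene (negative is upstream), receptors in red and Clec2 genes in blue, with the band under 1 kb shaded. Points fall in the band for Klrb1a, Klrb1c, Klrb1f and Clec2d, and Clec2e and Clec2h have none.

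Midpoints of 25 of the 37 were intergenic, 8 lay in introns and 4 in exons. Of the 37, 5 were centred within 1 kb of any annotated start, 16 at 1 to 5 kb and 16 at 5 kb or farther. The same shares over all Runx3-bound regions are not given here, so these positions are a description without a background. The widths of the 37 ran from 495 bp to 1508 bp with a median of 801 bp, against 825 bp over all Runx3-bound regions. The 5 widest lay upstream of Gm17395 (1508 bp), Klrb1a (1351 bp), Klrb1b (1200 bp), Klrb1 (1176 bp) and Klrb1f (1163 bp).

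Runx3-bound and H3K4me1-marked regions coincided: 36 of 37 overlapped by at least 1 bp, 97.3% (86.2% to 99.5%), and 30 lay wholly inside. Over all Runx3-bound regions the share was 95.7%, inside that interval, so the overlap at these genes did not differ detectably from the genome. H3K4me1 regions of the stretch that held a Runx3-bound region, 18 in number, had a median width of 6720 bp, whereas the 25 with none had a median width of 1755 bp. A wider region has more room to hold another. Of the 43, 8 held 2 or more Runx3-bound regions, and 5 were wider than 10 kb. Of these 5, the regions over the starts of Klrb1a (13752 bp) and Klrb1c (10713 bp) each overlapped 6 Runx3-bound regions. The others lay downstream of Klrb1c (12282 bp, 4), upstream of Klrb1b (11684 bp, 5) and upstream of Klrb1 (10486 bp, 2). H3K4me1 covered 31.6% of the stretch.

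The density of the stretch was set beside the genome cut into 4266 tiles of its length. As many Runx3-bound regions were present in 0.0703% of the tiles, that is in 3, of which 1 overlaps the stretch itself, and the median tile held 1. As much H3K4me1 cover was present in 0.352% of the tiles. Other lectin-like receptor clusters lie farther along the same chromosome. The stretch of Klrc, Klrd, Klrk, Klre and Klri genes held 15 Runx3-bound regions in 203 kb, or 7.40 per 100 kb, with 53.5% H3K4me1 cover, against 5.99 per 100 kb in the Klrb1 and Clec2 stretch. The stretch of Klra (Ly49) genes held 20 in 1460 kb, or 1.37 per 100 kb, with 10.8% cover. Unique 40-base words made up 81.5%, 77.6% and 64.1% of the Klrc to Klri, Klrb1 and Clec2, and Klra stretches, in the same order as their densities, and their part in that order was not tested.

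The RUNX consensus was present in 36 of the 37 regions, 97.3% (86.2% to 99.5%), and in 93.3% of all Runx3-bound regions. In the central 200 bp it was present in 21 of 37, 56.8% (40.9% to 71.3%), against 69.2% of all regions and 24.5% of 200 bp windows sampled along the genome. The genome-wide share for all regions lies within the interval of the stretch, and the share of sampled windows lies below it. In the neighbouring clusters, 20 of 20 Klra regions and 13 of 15 regions of the Klrc to Klri stretch held a word. The 37 regions held 71 words, 2.27 per kb against 3.19 per kb over all Runx3-bound regions, with 0 to 5 per region and a median of 2. TGTGGT made up 56.3% of the words here and 44.5% over all regions, and TGCGGC made up 4.23% here and 13.8% over all. The region without a word, chr6:128743017-128743658, lay upstream of Klrb1c and held an AP-1 word (TGAGTCA or its reverse complement TGACTCA). The ETS word AGGAAG was present in 70.3% of the 37 regions and 73.8% of all, the AP-1 words in 18.9% and 16.5%, and the T-box word AGGTGTGA in 5 of 37, 13.5% (5.91% to 28.0%), against 5.92% of all. In the RefSeq promoters of the GRCm38 build, which reach from 250 bases before to 50 after a start, 9 of the members were found, and 5 of them (Klrb1a, Klrb1b, Klrb1c, Clec2d and Clec2i) had a RUNX word in any of their promoters, against 48.7% of the 27025 genes listed, counted the same way.

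Several of the bound regions were near-copies of each other. Among the 666 pairs that 37 regions form, 7 pairs aligned over 300 bp or more at 85% identity or more, and they involved 14 regions. The start regions of Klrb1a and Klrb1c, printed above, aligned over 841 bp at 91.1% identity. Their single RUNX words fell in the same place of the alignment. The regions 2536 bp upstream of Klrb1a and 1645 bp upstream of Klrb1c aligned over 685 bp at 85.4% identity, and an intronic region of Klrb1a aligned with the coding-exon region of Klrb1c over 317 bp at 92.1% identity, so 3 of the regions at these 2 genes corresponded. The intronic regions of Clec2i and Clec2g aligned over 659 bp at 90.1% identity, again with a RUNX word in the same place. A region upstream of Klrb1c aligned in the opposite orientation with the region upstream of Klrb1f that the Clec2f window shares, over 440 bp at 94.5% identity. A RUNX word stood in the same place in all 7 pairs. The pairs were chosen by identity, which itself favours a shared word, and no expected share was computed.

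Other copies of bound sequence held no Runx3-bound region. In all, 10 copies of 8 regions, at 85% identity or more over 300 bp or more elsewhere in the stretch, were free of one. The sequence of the region 1349 bp upstream of Klrb1a recurred 536 bp upstream of Klrb1c and 1237 bp upstream of Klrb1-ps1. The coding-exon region of Klrb1c recurred in Klrb1b at 90.2% identity, where neither of its 2 RUNX words was kept. The Clec2d start region recurred at the 5' start of Clec2g at 88.7% identity and at the start of BC064078 at 89.5%, and the RUNX word of Clec2d lay outside both alignments. H3K4me1 was present at 9 of the 10 copies and absent at the 5' start of Clec2g. Over the 10 copies, 8 of 11 aligned RUNX words were kept, and over the 12 alignments that end in another bound region, 16 of 18, where a pair may count from either side. Unique 40-base words made up 59.1% to 97.1% of the copies without a bound region, with a median of 82.8%, against a median of 85.3% of those with one. Among the 37 regions the share was 90.0% overall and lowest, at 43.4%, in the region 2536 bp upstream of Klrb1a. How reads of ICR mice fell among such copies was not tested.

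**Figure D5:**
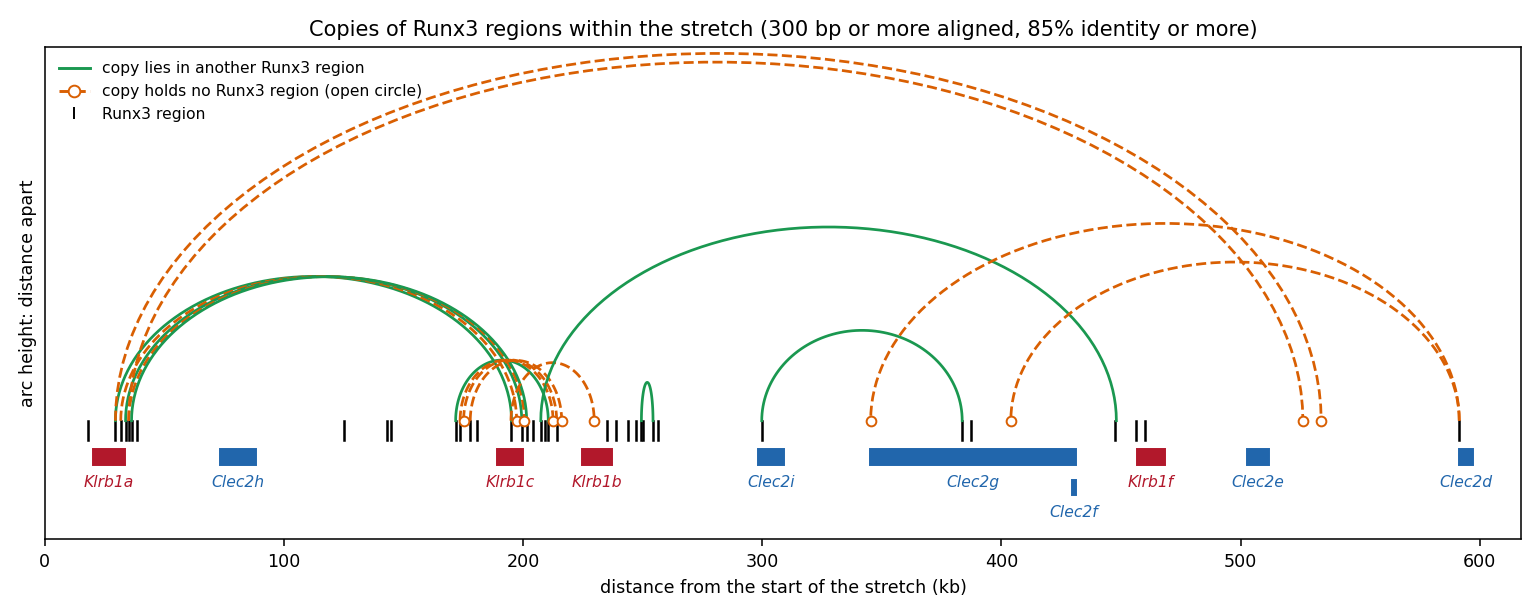
Arcs join each Runx3-bound region (black ticks, distance from the start of the stretch in kb) to its copies of 300 bp or more at 85% identity or more, and the arc height grows with the distance apart. Solid green arcs end in another Runx3-bound region and make 7 pairs, and dashed orange arcs end at an open circle, a copy with no Runx3-bound region, of which there are 10.

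The stretch holds 12 other annotated genes. Klrb1, a further receptor gene of the family at chr6:128656526-128673064, had 3 regions within 20 kb, centred 8708 bp downstream and 9189 bp and 10824 bp upstream of its start, and none of them lay in a member window. Gm17395 and BC035044 had 8 each within 20 kb. Gm5884 and Gm16186 had 3 each, Gm15987, Gm8778 and BC064078 had 2 each and U7 had 1. Klrb1-ps1, Clec2j and Gm16187 had none. These windows overlap those of the members, so their regions are in part the same ones. The nearest protein-coding genes outside, BC048546 on one side and Cd69, an activation marker of lymphocytes, on the other, had 0 and 2. Klrg1, a lectin-like receptor gene elsewhere on chromosome 6, had 8.

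Genes through which lectin-like NK cell receptors in general signal lie on several chromosomes. All 7 listed had Runx3-bound regions within 20 kb, where 51.0% of protein-coding genes did. Fcer1g, the adaptor of the activating receptors, had 4 with 1 centred 67 bp from a start. Cd247, which encodes the CD3 zeta chain, had 8. The kinase genes Lck, Zap70 and Syk, the last annotated as Sykb, had 5, 3 and 7, each with a region centred within 1 kb of a start. Ptpn6, the gene of SHP-1, had 5, with the nearest centred 1331 bp upstream of a start, and Ptpn11, the gene of the phosphatase SHP-2, had 2, with the nearest 7088 bp upstream.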

How the data were processed

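Splenic NK cell chromatin of ICR mice was precipitated with anti-Runx3, anti-H3K4me1 or NIS and sequenced. The authors aligned reads of 40 bp per the labels (slightly longer reads are included per the methods) to mm9 with ELAND (CASAVA 1.7 in the processing notes), kept unique alignments and called regions with MACS against NIS, on joined repeats per the methods. The deposited lists hold region starts and ends in bp, without score, counts or depth. Members and gene lists were chosen with earlier results of these data known. Named genes were all members, the other genes of the stretch, its neighbours and 7 signalling genes.

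Genes came from GENCODE M1 and sequence from NCBIM37 (mm9), checked against the lists. A region counted where it overlapped a gene with 20 kb either side by 1 bp, and at a start where its midpoint lay within 1 kb. Unique 40-base words were counted over the assembled chromosomes. Regions were aligned with BLAST 2.17.0 (E-value 1e-10) and the rest run in Python 3.11.15 with NumPy 2.4.6. Interval functions were tested on simulated data.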

Additional observations from a re-analysis of the deposited data

How the results depend on the processing

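Of 49 alternatives, 1 was chosen after seeing the data (Clec2g without the transcript that spans Clec2f). No value reversed. Counting regions in gene bodies alone gave a median of 1.0 per member in place of 2.0. Keeping regions wider than the median left 15 of 37 in the stretch, as that filter removes narrow regions by construction. The RUNX share fell from 97.3% to 56.8% in the central 200 bp and to 73.0% with TGTGGT alone. With 5 kb flanks, Klrb1b had 2 regions, Klrb1c 4 and Clec2f 0. No paired analysis was possible because each antibody has 1 list and no test was made. Lists without depth set no limit on weak binding, so a gene without a region is a gene without a called region.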
